A study of Mus musculus with 10 samples.

Results

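Cholesterol synthesis was followed in the mouse kidney through 8 genes, of which 7 encode enzymes of the pathway, Hmgcs1, Idi1, Fdps, Fdft1, Sqle, Lss and Dhcr7, and 1, Insig1, encodes a sterol sensor that controls it. They were chosen by name for their place in the pathway, with earlier results of these data known. For each, the probe set with the highest mean over all arrays was taken. They are 8 of the 18193 genes that could be named on the array, and all 8 were among the 11486 whose mean level reached the median of all probe sets, 5.53 on the log2 scale. The annotation assigned them 19 probe sets, 16 of which reached that level.

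Each of 10 FVB/N mice, 20 weeks old, gave 1 Affymetrix array of renal cortex. Every mouse had lost renal mass by a 2/3 ablation and then a uninephrectomy, and was treated for 6 weeks with a blocker of the renin-angiotensin system, with the first dose 6 weeks past ablation and 4 past uninephrectomy. In 5 mice this was losartan at 500 mg/l, an antagonist of the type 1 angiotensin II receptor, and the other 5 received the renin inhibitor aliskiren at 50 mg/kg per day. Since all 10 mice carried the renal lesion and received a drug, the values compare the drugs with each other; mice without a drug were not analysed here. All levels are the authors' RMA values on the log2 scale, where 1 unit is a 2-fold difference, and differences are aliskiren minus losartan.

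Cells make cholesterol from acetyl-CoA through mevalonate, the isoprenoid diphosphates and squalene. When sterols are scarce in the endoplasmic reticulum, the escort protein Scap carries the transcription factor SREBP-2 to the Golgi, where it is cut free to switch on nearly every enzyme of the route; when sterols are plentiful, Insig1 holds Scap back. In the kidney the tubular epithelium both makes cholesterol and takes it up from lipoproteins.

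The promoters of these genes were searched for the short motifs that SREBPs and their partner NF-Y are known to bind. RefSeq promoter windows on GRCm38.p6 were at hand for 5 of the 8 genes, and the 250 bases before the start site are shown for 4 of them, Hmgcs1 with a full match to the sterol element core, Idi1 with the lowest p in the drug comparison, Insig1 as the feedback gene, and Lss as a gene whose probe sets all lay lower with aliskiren. All 4 lie on the plus strand, Hmgcs1 at chr13:119690101-119690350, Idi1 at chr13:8885356-8885605, Insig1 at chr5:28071162-28071411 and Lss at chr10:76531355-76531604. Capitals mark matches, on either strand, to the sterol regulatory element core TCACNCCAC or its looser form CACNCCAC, which overlaps it, to the NF-Y box CCAAT, read ATTGG on the other strand, and to the E-box CACGTG.
Hmgcs1: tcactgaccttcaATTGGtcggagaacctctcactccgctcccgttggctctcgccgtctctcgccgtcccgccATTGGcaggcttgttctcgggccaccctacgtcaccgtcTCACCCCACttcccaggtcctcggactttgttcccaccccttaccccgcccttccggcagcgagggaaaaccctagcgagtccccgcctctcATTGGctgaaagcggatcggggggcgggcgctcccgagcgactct
Idi1: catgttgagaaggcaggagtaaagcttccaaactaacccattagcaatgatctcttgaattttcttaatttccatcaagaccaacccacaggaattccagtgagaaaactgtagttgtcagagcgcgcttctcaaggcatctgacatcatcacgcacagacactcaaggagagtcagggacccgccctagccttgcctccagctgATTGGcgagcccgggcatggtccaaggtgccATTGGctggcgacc
Insig1: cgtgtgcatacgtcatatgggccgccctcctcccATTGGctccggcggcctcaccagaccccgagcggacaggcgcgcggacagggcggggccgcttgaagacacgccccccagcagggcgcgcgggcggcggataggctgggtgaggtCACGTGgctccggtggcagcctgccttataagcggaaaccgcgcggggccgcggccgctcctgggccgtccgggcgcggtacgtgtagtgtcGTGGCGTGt
Lss: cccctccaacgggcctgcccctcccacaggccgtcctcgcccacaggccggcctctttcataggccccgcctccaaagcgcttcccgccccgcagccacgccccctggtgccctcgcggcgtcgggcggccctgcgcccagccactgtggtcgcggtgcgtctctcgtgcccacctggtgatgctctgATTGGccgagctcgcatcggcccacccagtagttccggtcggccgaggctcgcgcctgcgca

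Hmgcs1 was the only one of the 5 genes whose window held the sterol core, TCACCCCAC, beginning at position -137 from the start site, and it also held 4 NF-Y boxes, at -237, -176, -45 and, past the start site, 11. Insig1 held the looser sterol element at -9 and an E-box at -101. NF-Y boxes were in the window of each of the 5 genes, Idi1 with 2, at -45 and -14, Lss with 1, at -62, and Dhcr7 with 2 in the last of its 3 windows. Over all 32851 promoter windows of the same 300-base length, 1.24% held the core, 6.24% the looser element, 37.4% an NF-Y box and 7.15% an E-box. Counted by gene, an NF-Y box was found for 41.1% of 27025 genes and for 16 of the 17 synthesis enzymes and Insig1 that had a window. These matches are a description of letters in a window.

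By correlation over all probe sets the arrays were alike except for 1, though marker levels also differed among the other mice. The array medians lay between 5.521 and 5.564, and each mouse's array had a median correlation of 0.9924 to 0.9948 with the others over all probe sets, except losartan mouse 3 at 0.9816. Markers of proximal tubule, 14 measured genes, averaged between 12.54 and 13.17 in all 10 mice, with losartan mouse 3 the lowest, so the labelled tissue was borne out by its markers. Of 10 measured fat markers, 9 were highest in losartan mouse 3. Their mean was 10.44 there, 8.62 in aliskiren mouse 3 and 6.61 in aliskiren mouse 2, against 5.12 to 5.37 in the other 7 mice. Macrophage, tubular injury and stromal markers were also highest in losartan mouse 3, at 9.38, 9.73 and 10.28. In the other mice they ranged from 6.38 to 8.75, from 6.47 to 8.35 and from 7.52 to 9.09. Adrenal cortex markers, 8 measured genes, averaged 4.63 to 4.93 in all mice. Of these, Star, Cyp21a1 and Nr5a1 reached the level filter, and Cyp11a1, Cyp11b1, Cyp11b2, Hsd3b1 and Mc2r did not, though Mc2r was at 6.06 in losartan mouse 3 against 3.48 to 3.95 in the others. In bulk tissue, fewer cells of a type and less RNA per cell cannot be told apart. The difference of each of the 8 genes is given with and without losartan mouse 3, and the part of these other cell types in the differences was not tested.

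**Figure D1:**
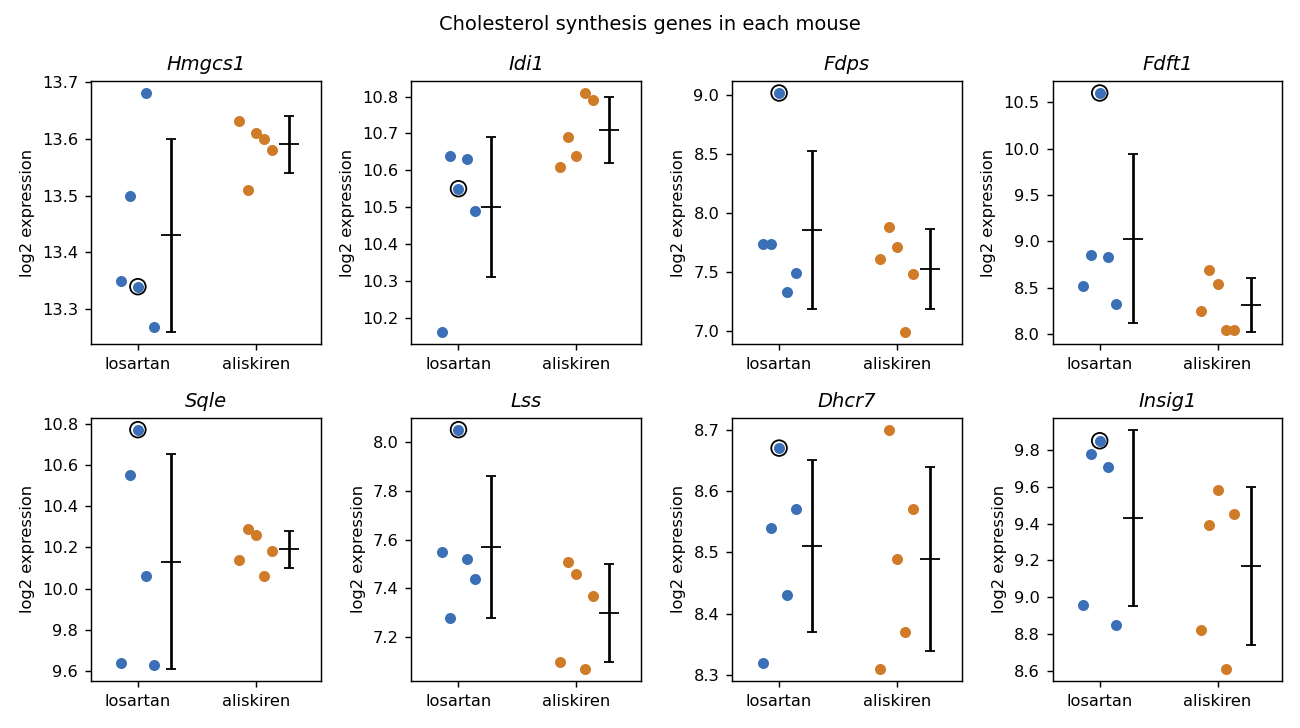
Level of each of the 8 genes in every mouse, as RMA log2 values of the representative probe set, with losartan and aliskiren side by side; each panel has its own axis, bars are the mean and SD of 5 mice, and losartan mouse 3 is ringed. The groups overlap in all 8 panels, and the ringed mouse is the highest of the 10 for Sqle, Insig1, Fdps, Fdft1 and Lss.

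No gene of the group passed the test between the drugs, and the groups overlapped for each of them. With limma and Benjamini-Hochberg adjustment over all 11486 genes, 0 of the 8 reached an adjusted p under 0.05, as did 0.0% of all genes, with 0.945 the lowest adjusted p of any gene. At an unadjusted p under 0.05 there was 1 of the 8, Idi1, beside 4.72% of all genes tested, 2.19% higher and 2.53% lower with aliskiren. Groups that did not overlap were found for 0 of the 8 and for 0.914% of all genes. Of the 8, 3 had the higher mean with aliskiren, Hmgcs1, Idi1 and Sqle, and 5 the lower, beside 53.8% of all genes lower. Their median difference was -0.14, or -0.01 without losartan mouse 3, beside -0.01 over all genes. It was -0.13 without losartan mouse 3 and aliskiren mice 2 and 3, -0.23 with each gene's probe set of largest variance and 0.0015 with array weights.

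Hmgcs1 encodes the cytosolic synthase that makes HMG-CoA, an early step of the mevalonate route. Its levels in losartan mice 1 to 5 were 13.35, 13.50, 13.34, 13.68 and 13.27, and in aliskiren mice 1 to 5 they were 13.63, 13.51, 13.61, 13.60 and 13.58. The aliskiren mice lay close together in the upper part of the losartan range, all 5 above the losartan mean but below losartan mouse 4. The means were 13.43 ± 0.17 and 13.59 ± 0.05 (SD, n = 5 each), a difference of 0.16 (SE 0.08, 95% interval -0.02 to 0.33, limma adjusted p = 0.945). Without losartan mouse 3 it was 0.13 (limma adjusted p = 0.947). Losartan mouse 4, the highest of all mice, weighed most on it: without that mouse the difference was 0.22 (limma adjusted p = 0.695).

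Hmgcs1 had 4 further probe sets. In 3 of them the difference was 0.15, 0.19 and 0.17, with correlations of 0.97, 0.87 and 0.80 to the representative one over the 10 mice. The remaining one gave -0.20 and a correlation of 0.23, at a mean of 6.75 where the others had means of 11.07 to 13.51. Thus 4 of the 5 probe sets were higher with aliskiren by a similar amount, and 1 was lower.

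Idi1 encodes the isomerase that balances the isoprenoid building blocks isopentenyl and dimethylallyl diphosphate. The levels were 10.16, 10.64, 10.55, 10.63 and 10.49 in losartan mice 1 to 5 and 10.61, 10.69, 10.64, 10.81 and 10.79 in aliskiren mice 1 to 5. Of the aliskiren mice, 4 lay above every losartan mouse, mouse 3 by less than the second decimal, and aliskiren mouse 1 fell just under the top of the losartan range. The means were 10.50 ± 0.19 and 10.71 ± 0.09 (SD, n = 5 each), a difference of 0.22 (SE 0.09, 95% interval 0.01 to 0.42, limma adjusted p = 0.945).

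Losartan mouse 3 had an ordinary Idi1 level, and without it the difference was 0.23 (limma adjusted p = 0.947) and still under the unadjusted threshold, where 4.55% of all genes had an unadjusted p under 0.05. Losartan mouse 1, the lowest, carried more of it: without that mouse the difference was 0.13 and missed the unadjusted threshold (limma adjusted p = 0.964). It also missed that threshold without losartan mouse 5 or aliskiren mouse 2, 4 or 5, with differences of 0.19 to 0.22. The other Idi1 probe set had a difference of 0.55 (SE 0.19, limma adjusted p = 0.944 over all probe sets), or 0.49 without losartan mouse 3, with all 5 aliskiren mice above the losartan mean and a correlation of 0.86 with the first. Both Idi1 probe sets thus lay higher with aliskiren, neither past the adjusted threshold.

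Fdps encodes farnesyl diphosphate synthase, whose product is the branch point between sterols and other isoprenoids. Its levels were 7.74, 7.74, 9.02, 7.33 and 7.49 with losartan and 7.61, 7.88, 7.71, 6.99 and 7.48 with aliskiren, in the order of the mouse numbers. Losartan mouse 3 stood far above the rest and aliskiren mouse 4 below them, and the other 8 mice of both groups were intermingled. The means were 7.86 ± 0.67 and 7.53 ± 0.34 (SD, n = 5 each), a difference of -0.33 (SE 0.30, 95% interval -0.99 to 0.33, limma adjusted p = 0.949). It was -0.04 without losartan mouse 3 (limma adjusted p = 0.984). The other Fdps probe set lay below the level filter at a mean of 2.52.

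Fdft1 encodes squalene synthase, which joins farnesyl units in the first step that leads only to sterols. It had the widest spread of the group. The losartan mice had 8.52, 8.85, 10.60, 8.83 and 8.33, and the aliskiren mice 8.25, 8.69, 8.54, 8.04 and 8.04. Losartan mouse 3 was far above the other 9, and aliskiren mice 1, 4 and 5 lay below every losartan mouse, while aliskiren mice 2 and 3 lay within the losartan range.

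The Fdft1 means were 9.03 ± 0.91 and 8.31 ± 0.29 (SD, n = 5 each), a difference of -0.71, or 0.610-fold (SE 0.38, 95% interval -1.55 to 0.12, limma adjusted p = 0.945). Without losartan mouse 3 it was -0.32 (limma adjusted p = 0.947). The other Fdft1 probe set above the filter had a correlation of 0.98 with the first over the 10 mice and a difference of -0.49, or -0.14 without losartan mouse 3. In both probe sets all 5 aliskiren mice were below the losartan mean, and 4 and 3 of them were below the mean of the other 4 losartan mice. A further 2 Fdft1 probe sets lay below the level filter.

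Sqle encodes squalene epoxidase, a rate-limiting oxygenation of the pathway. Its levels were 9.64, 10.55, 10.77, 10.06 and 9.63 in the losartan mice and 10.14, 10.29, 10.26, 10.06 and 10.18 in the aliskiren mice. The losartan mice spanned more than the whole aliskiren range on both sides, with mice 2 and 3 above it and mice 1 and 5 below it. The means were 10.13 ± 0.52 and 10.19 ± 0.09 (SD, n = 5 each), a difference of 0.06 (SE 0.21, 95% interval -0.41 to 0.53, limma adjusted p = 0.993). It was 0.22 without losartan mouse 3 and -0.064 or -0.066 without losartan mouse 1 or 5, so its direction rested on single mice.

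Lss encodes lanosterol synthase, which closes the sterol rings. The losartan mice had 7.55, 7.28, 8.05, 7.52 and 7.44, and the aliskiren mice 7.10, 7.51, 7.46, 7.07 and 7.37. Losartan mouse 3 was the highest and aliskiren mice 1 and 4 lay below every losartan mouse. The means were 7.57 ± 0.29 and 7.30 ± 0.20 (SD, n = 5 each), a difference of -0.27 (SE 0.14, 95% interval -0.59 to 0.05, limma adjusted p = 0.945), and of -0.15 without losartan mouse 3. The other 2 Lss probe sets gave -0.30 and -0.11, at means of 5.97 and 5.62, near the level filter. Their correlations with the representative one over the 10 mice were 0.96 and 0.29.

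Dhcr7 encodes the last reductase of the route, which turns 7-dehydrocholesterol into cholesterol. The levels were 8.32, 8.54, 8.67, 8.43 and 8.57 with losartan and 8.31, 8.70, 8.49, 8.37 and 8.57 with aliskiren. The groups covered the same range. The means were 8.51 ± 0.14 and 8.49 ± 0.15 (SD, n = 5 each), a difference of -0.02 (SE 0.09, 95% interval -0.22 to 0.18, limma adjusted p = 0.994), and it was 0.02 without losartan mouse 3.

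Insig1, the sensor, is itself switched on by SREBPs. Its levels were 8.96, 9.78, 9.85, 9.71 and 8.85 in losartan mice 1 to 5 and 8.82, 9.39, 9.58, 8.61 and 9.45 in aliskiren mice 1 to 5. Each group split into low and high mice, with losartan mice 1 and 5 and aliskiren mice 1 and 4 low. The means were 9.43 ± 0.48 and 9.17 ± 0.43 (SD, n = 5 each), a difference of -0.26 (SE 0.26, 95% interval -0.83 to 0.30, limma adjusted p = 0.949), and it was -0.16 without losartan mouse 3.

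**Figure D2:**
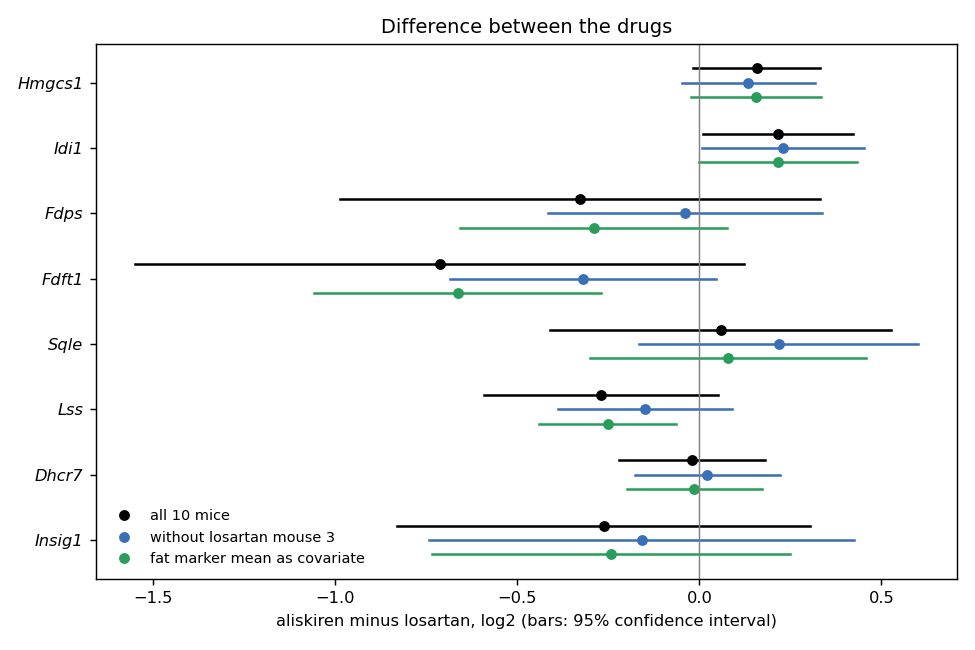
Difference between the drugs, aliskiren minus losartan on the log2 scale, with its 95% interval for each of the 8 genes, from all 10 mice, without losartan mouse 3 and with the mean of the fat markers as a covariate. The Fdft1 difference is -0.71, -0.32 and -0.66 in these fits and that of Idi1 is 0.22, 0.23 and 0.22.

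How closely the drugs were matched could be bounded for some of the genes. The 95% interval excluded a 1.5-fold difference in either direction for 4 of the 8, Hmgcs1, Sqle, Idi1 and Dhcr7, beside 87.7% of all genes tested. For Insig1, Fdps, Fdft1 and Lss it did not exclude that size. Without losartan mouse 3 it did so for 5 of the 8, Hmgcs1, Idi1, Dhcr7, Fdps and Lss, and no longer for Sqle, beside 92.2% of all genes. The other Idi1 probe set, with an interval of 0.12 to 0.97, was not bounded in this way. Nor was the Hmgcs1 probe set of lowest level, with an interval of -0.68 to 0.27. With all 10 mice, the 4 genes without a bound had a large spread between mice of 1 group: among all genes tested, their within-group SD was at percentile 93.3 for Insig1, 95.1 for Fdps, 97.3 for Fdft1 and 80.3 for Lss. That of Sqle was at percentile 90.2, and those of Idi1, Dhcr7 and Hmgcs1 were at 53.8, 50.8 and 37.4.

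For Fdft1, Fdps and Lss, the SD of the losartan mice was 0.26, 0.20 and 0.12 without mouse 3, against 0.91, 0.67 and 0.29 with it. For Insig1 it was 0.49 without and 0.48 with it, and for Sqle 0.44 and 0.52. Losartan mouse 3 was the highest of the 10 mice for 5 of the 8 genes, beside 29.2% of all genes, and the lowest for 0, beside 24.9%. In these 5 it stood over 1.5-fold above the mean of the other 9 mice, as it did for 11.1% of all genes: 4.43-fold for Fdft1, 2.76-fold for Fdps, 1.61-fold for Lss, 1.60-fold for Sqle and 1.52-fold for Insig1. Hmgcs1 was at 0.878-fold in that mouse, Idi1 at 0.961-fold and Dhcr7 at 1.14-fold. The genes were therefore not raised as a block in losartan mouse 3, with squalene synthase and farnesyl diphosphate synthase far ahead and the first enzyme of the group slightly under the other mice.

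The mice with fat marker signal had these levels: losartan mouse 3, with a fat marker mean of 10.44, had Fdft1 at 10.60 and Fdps at 9.02, aliskiren mouse 3, with 8.62, had 8.54 and 7.71, and aliskiren mouse 2, with 6.61, had 8.69 and 7.88. With the fat marker mean as a covariate the Fdft1 difference was -0.66 (limma adjusted p = 0.71) and the Lss difference -0.25 (limma adjusted p = 0.716), where 6.44% of all genes had an unadjusted p under 0.05. With losartan mouse 3 and aliskiren mice 2 and 3 left out, they were -0.52 (limma adjusted p = 0.903) and -0.27 (limma adjusted p = 0.903), where 5.04% of all genes had an unadjusted p under 0.05. Both genes were under the unadjusted threshold in both fits and past the adjusted one in neither. The Idi1 difference was 0.22 and 0.26 in these fits, over the unadjusted threshold in both. Aliskiren mice 2 and 3, left out in the second fit, had the highest aliskiren levels of both Fdft1 and Lss. With only losartan mouse 3 and aliskiren mouse 3 left out, the Fdft1 and Lss differences were -0.38 and -0.19. Neither gene was then under the unadjusted threshold, beside 3.77% of all genes. The same held for both genes with all 10 mice and without losartan mouse 3 alone.

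**Figure D3:**
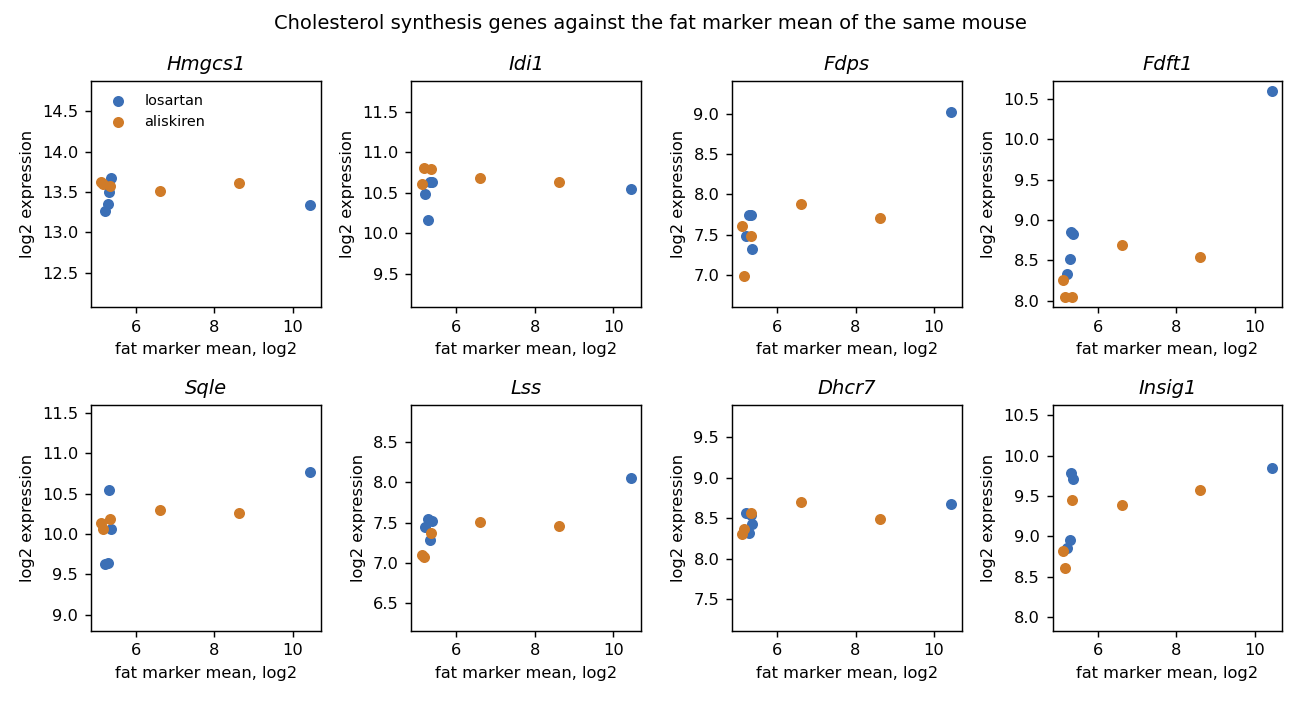
Level of each gene against the mean of 10 fat markers in the same mouse, both as log2 values, with the groups in different colours and y axes of equal span. Losartan mouse 3 lies alone at a fat marker mean of 10.44 with Fdft1 at 10.60 and Fdps at 9.02, and aliskiren mouse 3 lies at 8.62 with Fdft1 at 8.54 and Fdps at 7.71.

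Within the group, several genes varied together across mice. Of the 28 pairs, 21 had a positive correlation over the 10 mice, with a median of 0.52, and 20 without losartan mouse 3, with a median of 0.37. The points share arrays and normalization, and the values are a description. Over the 10 mice, Fdps, Fdft1 and Lss were the most alike, with correlations of 0.91 for Fdps with Fdft1, 0.86 for Fdft1 with Lss and 0.84 for Fdps with Lss. Without losartan mouse 3 these were 0.53, 0.55 and 0.50, and then below those among Hmgcs1, Idi1 and Sqle. The highest of the 28 pairs without that mouse was Insig1 with Fdft1, at 0.70.

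Hmgcs1 and Idi1 had a correlation of 0.63, and 0.65 without losartan mouse 3. Hmgcs1 ran opposite to Fdps and Lss, at -0.50 and -0.54, and still did so without that mouse, at -0.30 and -0.36. Sqle was at 0.70 with Insig1, 0.65 with Fdft1 and 0.62 with Fdps, or 0.62, 0.31 and 0.23 without losartan mouse 3. With Hmgcs1 and Idi1 it was at 0.19 and 0.46, or 0.62 and 0.66 without that mouse. With values centred within each drug group, Hmgcs1 was at -0.40 with Fdps and -0.34 with Lss.

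By mouse, both drug groups held mice with most of the genes above and mice with most of them below the gene's mean. Aliskiren mouse 2 was above the gene's own mean over the 10 mice for all 8 genes, and losartan mice 2 and 3 and aliskiren mouse 3 for 6 of them. Losartan mice 1 and 5 and aliskiren mice 1 and 4 were above it for 2 each. Aliskiren mouse 4 had the lowest level of 3 genes, Insig1, Fdps and Lss, and the highest of Idi1.

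The other enzymes of the pathway, from a list of 21 with the group included, overlapped between the drugs in the same way. Of 14 enzymes outside the group, 11 were tested and the other 3 were not analysed here. A higher mean with aliskiren was found for 2 and a lower one for 9, beside 53.8% of all genes lower. At an unadjusted p under 0.05 there were 0, beside 4.72% of all genes. The median difference was -0.09 with or without losartan mouse 3. The enzyme of smallest p was Pmvk, phosphomevalonate kinase, at 7.55 ± 0.46 with losartan and 7.22 ± 0.16 with aliskiren (SD, n = 5 each), a difference of -0.33 (SE 0.19, limma adjusted p = 0.945). It was -0.14 without losartan mouse 3, which had 8.34. Next came Tm7sf2 and Nsdhl, enzymes of the steps after lanosterol, with differences of -0.11 and -0.10, or -0.08 and -0.09 without that mouse.

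Losartan mouse 3 did not move these enzymes as a block either. Msmo1, the sterol C4-methyl oxidase, was at 9.93 there, 2.35-fold the mean of the other 9 mice, and Pmvk was at 2.08-fold. Cyp51, the lanosterol demethylase, was at 11.09, 0.598-fold, and the lowest of all mice. Ebp, at 0.685-fold, and Sc5d, at 1.79-fold, are named after their values were seen. Enzymes of the same route thus lay on both sides of the other mice in that kidney.

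**Figure D4:**
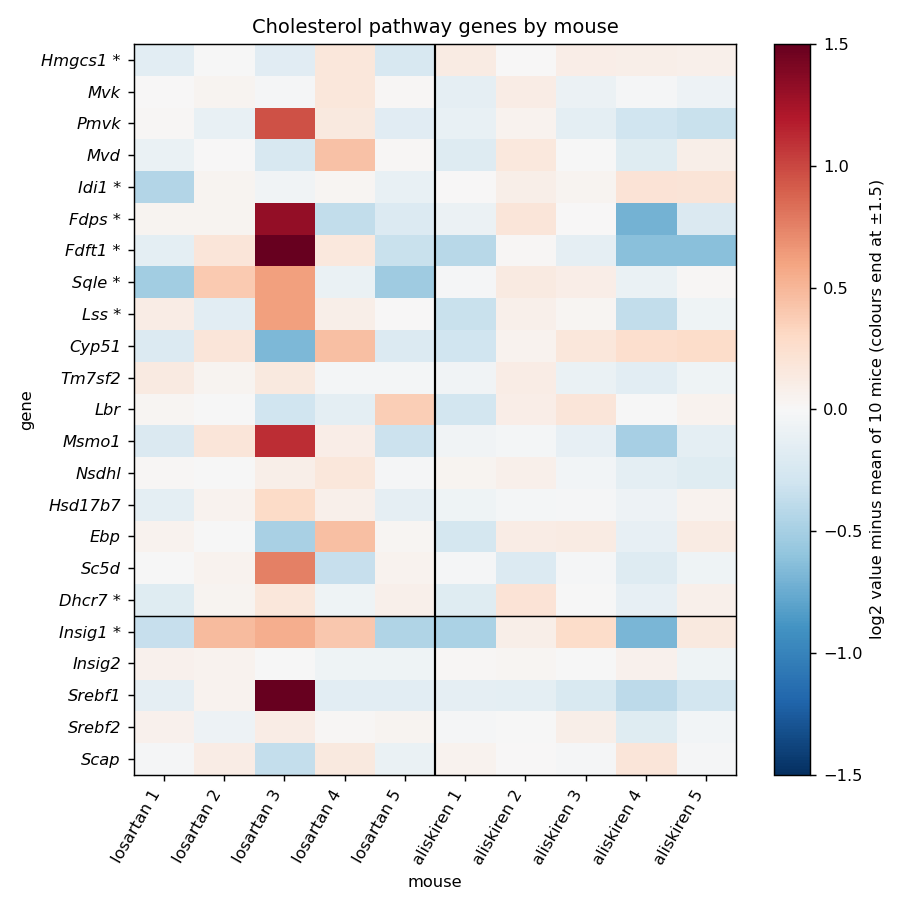
Level of the measured synthesis enzymes and of Insig1, Insig2, Srebf1, Srebf2 and Scap in every mouse, as the log2 deviation from the gene's mean over the 10 mice. The other sterol-sensing genes are not drawn. Genes are in rows and mice in columns, with colours ending at 1.5 in either direction, and asterisks mark the 8 genes. The column of losartan mouse 3 holds the largest upward deviations, those of Fdft1 and Srebf1, and its Cyp51 is the lowest of the 10 mice.

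Of the 9 tested sterol-sensing genes besides Insig1, 5 were higher and 4 lower with aliskiren, beside 53.8% of all genes lower. Their median difference was 0.01 with or without losartan mouse 3, and 0 had an unadjusted p under 0.05, beside 4.72% of all genes. The 95% interval excluded a 1.5-fold difference in either direction for 8 of the 9, near the 87.7% of all genes. Srebf2, which encodes SREBP-2, was at 7.77 ± 0.07 and 7.71 ± 0.10 (SD, n = 5 each), a difference of -0.06 (SE 0.06, 95% interval -0.20 to 0.08), or -0.04 without losartan mouse 3. Insig2, the other Insig gene, differed by 0.01 (SE 0.05), the same without that mouse. Srebf1, whose products drive fatty acid as well as sterol genes, was at 8.82 ± 0.76 with losartan and 8.34 ± 0.10 with aliskiren, but the losartan mean held a value of 10.17 in mouse 3, 3.41-fold the other mice; the difference of -0.47 was -0.13 without it.

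With all 10 mice, genes of cholesterol uptake and transport held the lowest p-values among the pathway lists. Of 12 tested, 4 were higher and 8 lower with aliskiren, with a median difference of -0.06, and 2 had an unadjusted p under 0.05, beside 4.72% of all genes. Without losartan mouse 3 the median was -0.02 and 3 had such a p, the third being Npc1, a lysosomal cholesterol exporter, with a difference of 0.13 and named after its values were seen, beside 4.55% of all genes. Mylip, the ubiquitin ligase that sends lipoprotein receptors to the lysosome, had 9.91, 9.70, 10.27, 10.22 and 9.86 in losartan mice 1 to 5 and 9.74, 9.52, 9.47, 9.32 and 9.67 in aliskiren mice 1 to 5. Of the aliskiren mice, 4 lay below every losartan mouse. The difference was -0.45 (SE 0.12, limma adjusted p = 0.945) and -0.38 without losartan mouse 3.

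Cd36, a scavenger receptor for fatty acids and modified lipoproteins, had 12.20, 12.29, 12.26, 12.47 and 12.27 with losartan and 12.87, 12.44, 12.52, 12.48 and 12.58 with aliskiren. All aliskiren mice but mouse 2 were above every losartan mouse. The difference was 0.28 (SE 0.09, limma adjusted p = 0.945), and 0.27 without losartan mouse 3. Stard4, a sterol carrier that SREBP-2 switches on, was -0.25 (SE 0.13, limma adjusted p = 0.945), or -0.22 without losartan mouse 3.

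Efflux genes, users of isoprenoids and fatty acid synthesis completed the comparison. Of 8 tested genes of efflux, esterification and oxysterols, 3 were higher and 5 lower, with a median difference of -0.10, or 0.13 without losartan mouse 3. The 1 at an unadjusted p under 0.05, beside 4.72% of all genes, was Nr1h3, the liver X receptor alpha gene. Its difference was 0.21 (SE 0.08, limma adjusted p = 0.945), or 0.17 without losartan mouse 3, when it missed that threshold. Cyp7b1, the oxysterol 7-alpha-hydroxylase, was at 7.21 in losartan mouse 3 and between 9.46 and 12.46 in the other mice. Of 10 isoprenoid genes, 5 were higher and 5 lower, or 2 higher and 8 lower without losartan mouse 3, with a median difference of -0.01 and -0.02. Ggps1, which makes geranylgeranyl diphosphate from the product of Fdps, differed by -0.18 (SE 0.07, limma adjusted p = 0.945), or -0.19 without losartan mouse 3. It was the 1 isoprenoid gene under the unadjusted threshold in both fits, beside 4.72% and 4.55% of all genes.

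Fatty acid synthesis, the SREBP-1 branch, was the list in which losartan mouse 3 stood apart most. It was the highest of the 10 mice for 12 of the 15 genes, beside 29.2% of all genes. For 10 of them it was over 1.5-fold above the other mice, beside 11.1% of all genes. The list's median difference was -0.28 with that mouse and 0.12 without it. Thrsp, Acaca and Fasn, named after their values were seen, were at 54.1-fold, 13.9-fold and 13.2-fold the other mice there. In aliskiren mouse 3, Fasn was at 10.77 and Acaca at 9.96, the second highest of the 10 mice. Losartan mouse 3 and aliskiren mouse 3 also had the highest fat marker means, 10.44 and 8.62. The part of fat cells in these levels was not tested.

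Scd2, a stearoyl-CoA desaturase, was the 1 gene of the 65 tested pathway genes outside the group whose drug groups did not overlap, a share near the 0.914% of all genes. Its levels were 9.88, 9.95, 11.16, 9.91 and 9.87 in losartan mice 1 to 5 and 9.69, 9.63, 9.78, 9.66 and 9.54 in aliskiren mice 1 to 5. All 5 aliskiren mice lay below all 5 losartan mice, and losartan mouse 3 lay well above the other 4 of its group. The difference was -0.50 (SE 0.23, limma adjusted p = 0.945), and -0.25 without losartan mouse 3. Without that mouse Scd2 had the lowest p of these 65 genes and was under the unadjusted threshold, beside 4.55% of all genes. It was not past the adjusted threshold in either fit.

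Over all 11478 other tested genes, the pattern most like the mean of the 8 genes across the 10 mice, each gene scaled to its own mean and SD, was that of Orc5, a subunit of the origin recognition complex, with a correlation of 0.955. It was also the most alike without losartan mouse 3, at 0.930. Vat1 (0.920), Rnf170 (0.919), Skap2 (0.916), Hsd17b7 (0.916), Pacs1 (0.910), Slc39a1 (0.904), Mbtd1 (0.904), Ccdc28b (0.902) and Cdc25b (0.901) followed. Hsd17b7 is an enzyme of the pathway itself, a sterol 3-ketoreductase. Of these 10 genes, 2 were still among the 10 most alike without losartan mouse 3, and 7 with values centred within each drug group. The most opposite were Kif17 and Scp2 (both -0.928), Cux1 (-0.927), Stk16 (-0.919) and Lrrc19 (-0.915), and 0 of these 5 were among the 5 most opposite without losartan mouse 3.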

How the data were processed

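The values, as deposited, are on the log2 scale, with 1 per probe set and mouse. Per the submitters' processing notes they were computed by RMA (Affymetrix Expression Console 1.1), from cRNA made of 100 ng of total RNA per the labels' protocols. RMA brings arrays to a common distribution, so a shift of all genes would not be seen. Probe sets with several symbols or none were left out. Each gene's probe set of highest mean was tested where that mean reached 5.53, by a two-sided limma fit (version 3.58.1, R 4.3.3) with the drug as its single term, eBayes moderation and Benjamini-Hochberg adjustment over 11486 genes. The fit was tested on simulated data. Arrays have no depth; 5 per group limit the precision. The labels number the mice per drug, and the reported fit did not pair arrays by number. Deviations of same-numbered arrays were the best matched for mouse numbers 4 and 5, and not for 1, 2 and 3.

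The named genes were the 8 members, up to 3 genes of smallest p per pathway list with a fixed set of readouts, and the genes most and least like the members' mean; others are said to be named after their values were seen. The members, lists and tests were chosen with earlier results of these data known. Alternatives covered the level filter, choice of probe set, scaling, variance model, array weights, mouse number as a block, a fat marker covariate and leaving out mice. Fits without losartan mouse 3 and aliskiren mouse 3, and without these and aliskiren mouse 2, and the ranking of alike genes without losartan mouse 3, were added after the data were seen. Promoter windows are from RefSeq (GRCm38.p6). Figures were drawn with matplotlib 3.10.9.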

Additional observations from a re-analysis of the deposited data

Results flagged for a closer look

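The groups examined were those of the 8 genes, of related genes named by rule and of the marker list means. In 7 of these 76 groups of 5 values, 1 mouse lay apart. Its gap to the nearest other mouse took more than 0.71 of the group's range (Dixon's 95% limit). Chance alone sets about 1 group in 20 apart, but these groups share mice and are not independent. Losartan mouse 3 was that mouse in 6 of the 7. It lay high for Fdft1 at 10.60, with the other losartan mice at 8.33 to 8.85, and for Fdps at 9.02, with the others at 7.33 to 7.74. Among the related genes examined it lay high for Pmvk at 8.34, for Srebf1 at 10.17 and for Scd2 at 11.16. Other pathway genes were not examined in this way, such as Fasn, at 12.78 there with the other losartan mice at 8.54 to 8.94. The mean of the fat markers in that mouse was 10.44, with the other losartan mice at 5.21 to 5.37. The remaining case was Msmo1 in aliskiren mouse 4, low at 8.33 with the other aliskiren mice at 8.68 to 8.80.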

How the results depend on the processing

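Under every alternative run, 0 genes passed an adjusted p of 0.05, and the lowest adjusted p of any of the 8 genes was 0.695. Some settings, such as the variance model, cannot move a difference; of the 151 alternative values that did differ from the reported one, 141 kept its direction and 10 turned. Insig1, Idi1, Fdps, Fdft1 and Lss did not turn in any. Hmgcs1 was -0.20 with its probe set of largest variance, the one of lowest level, with a mean of 6.75. Dhcr7 was 0.041 with array weights, 0.065 without losartan mouse 3 and aliskiren mouse 1, 0.021 without losartan mouse 3 and aliskiren mouse 3, and between -0.072 and 0.024 with 1 mouse left out. Sqle lay between -0.066 and 0.22 with 1 mouse left out.

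The number of the 8 genes at an unadjusted p under 0.05, which was 1, became 0 with an ordinary t statistic and without losartan mouse 3 and aliskiren mouse 3. It was 2 with array weights, with the fat marker covariate and without losartan mouse 3 and aliskiren mice 2 and 3. With 1 mouse left out it lay between 0 and 2, being 0 without losartan mouse 1 or aliskiren mouse 2, 4 or 5, and 2 without losartan mouse 2 or 4. The share of all genes at that level ranged from 3.2% to 7.0% over these fits, with 6.11% for array weights, 6.37% without losartan mouse 2 and 7.0% without losartan mouse 4. With the mouse number as a replicate block it was 2, Idi1 and Fdft1; deviations of same-numbered arrays had correlations of -0.062, -0.229, -0.029, 0.42 and 0.232, and 0 genes passed the adjusted threshold. The cause of these shifts was not tested. A level filter at the 75th percentile left out Fdps and Lss.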
